A study of Mus musculus with 8 samples.

Results

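The Wnt genes of muscle fibroadipogenic progenitors are described here: the secreted Wnt ligands, their Frizzled (Fzd) receptors and Lrp co-receptors, and the proteins that raise or dampen Wnt signalling. Members were the rows of the count table whose symbol is that of a Wnt, Fzd, Sfrp (1 to 5), Dkk (1 to 4), Dact (1 to 3) or Rspo (1 to 4) gene, or is Lrp5, Lrp6 or Wif1. There were 47 such rows of 24419, and the 38 with at least 10 reads in 2 or more of the 8 libraries are reported. The same number of members, 38, entered the test across 13646 genes. The working name of ligands, receptors and antagonists does not cover the R-spondins, which enhance signalling, or the Dact proteins, which act inside the cell. The symbol patterns leave out Frzb, a further secreted Frizzled-related gene, which is given with the other pathway genes at the end.

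The cells were sorted as SCA-1 positive and CD31, CD45 and α7-integrin negative from hindlimb muscle of male C57BL/6J mice, whose age is not given. The sham group (n = 2 libraries) had surgery without injected cells. The scrambled group (n = 3) had KPCY cells, a mouse pancreatic cancer line, injected into the pancreas after transduction with a lentivirus carrying a scrambled sequence. The knockdown group (n = 3) had KPCY cells whose lentivirus inhibited miR-27a-3p. Both tumour lines were selected with puromycin, so the sham mice differ from the tumour-bearing mice in cells, vector and tumour together. The vectors were in the injected cells and not in the sorted progenitors, and each tumour group rests on a single stable line. The titles call the libraries biological replicates, and the labels used here give no sort day or library batch.

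A Wnt protein is lipidated by Porcn, escorted to the cell surface by Wls, and binds a Frizzled receptor. With Lrp5 or Lrp6 as co-receptor the signal stabilises beta-catenin, which acts with TCF and LEF factors on target genes, whereas other ligand and receptor pairs act through planar cell polarity and calcium routes without beta-catenin. Sfrp proteins and Wif1 bind Wnt ligands outside the cell, classical Dkk proteins bind the Lrp co-receptors, R-spondins protect Frizzled receptors from removal, and Dact proteins bind Dishevelled in the cytoplasm. In mesenchymal progenitors, beta-catenin signalling is known to hold back fat cell formation.

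Libraries held between 15647436 and 28340450 reads, of which the 47 rows took between 0.151% and 0.212%. Pdgfra, a defining gene of these progenitors, stood between 1256 and 1588 CPM (reads relative to the library's total, with totals scaled by TMM factors). Scrambled library 2 stood apart from scrambled libraries 1 and 3. It was the scrambled library closest to the sham mean, on the log2 scale, for 27 of the 38 members and for 69.8% of all genes tested, and values are therefore also given without it. As it was picked from these same values, leaving it out tends to move the scrambled mean away from sham and to narrow the spread. Calls made without it, and the low adjusted p-values from that fit, are therefore a description and no independent support. Of 14 listed progenitor markers 0 were called in the 3 comparisons, and an unadjusted p under 0.05 was reached in scrambled against sham libraries by 2 in the upward and 3 in the downward direction, with a median log2 change of -0.32. The 14 markers summed to between 107895 and 107993 CPM in sham, 77549 and 106971 in scrambled and 100958 and 107446 in knockdown libraries. Pi16 and Dpp4, surface markers of an early progenitor state, were chosen from that list after their values were seen to follow this split. The other listed markers, among them those that rose, are not given by library here. Pi16 stood at 2722 and 2974 CPM in sham, at 295, 2305 and 189 CPM in scrambled and at 2102, 2565 and 2391 CPM in knockdown libraries, and Dpp4 at 342 and 381 CPM in sham, at 133, 287 and 149 CPM in scrambled and at 408, 346 and 397 CPM in knockdown libraries. Their part in the results was not tested. Bulk libraries cannot tell fewer cells of a type from less RNA per cell.

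Most marker lists of other cell types had a median log2 change above 0 in scrambled against sham libraries. Muscle stem cell markers summed to between 197 and 199 CPM in sham, 291 and 535 in scrambled and 219.99 and 246 in knockdown libraries, with a median log2 change of 1.64 over the 6 tested. Of these Sdc4, a syndecan that other cells also carry, was called higher and was the largest part of the sum in every library, at 85.1 and 85.8 CPM in sham, at 494, 173 and 340.2 CPM in scrambled and at 125, 118 and 111 CPM in knockdown libraries. Pax7, a defining marker, did not exceed 1.01 CPM. Muscle fibre markers summed to between 36.3 and 74.8 CPM in sham, 88.6 and 315 in scrambled and 53.0 and 70.2 in knockdown libraries, with a median of 1.07 and scrambled library 3 the highest. Schwann and perineurial markers summed to between 52.5 and 63.3 CPM in sham, 83.4 and 169 in scrambled and 91.6 and 97.8 in knockdown libraries (median 0.91), pericyte and smooth muscle markers to between 611 and 615 CPM in sham, 619.6 and 795 in scrambled and 621 and 700.1 in knockdown libraries (median 0.87), and immune markers to between 18.7 and 26.1 CPM in sham, 28.5 and 54.2 in scrambled and 19.8 and 49.1 in knockdown libraries (median 1.07). Mature adipocyte markers were near 0 in sham, and summed to between 0 and 0.725 CPM in sham, 2.58 and 11.5 in scrambled and 0.719 and 4.02 in knockdown libraries, with Lep at 0 in every library. Over the 5 tested their median log2 change, from these low levels, was 5.155 in scrambled against sham and -1.398 in knockdown against scrambled libraries. Epithelial markers summed to between 6.03 and 10.5 CPM in sham, 4.60 and 18.3 in scrambled and 6.36 and 9.88 in knockdown libraries (median -0.28). Apart from Sdc4, 0 markers of these 7 lists were called in any comparison, and the part of these markers in the Wnt gene values was not tested.

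Per length of transcript, the order of the members differed between groups, so group means in RPKM (CPM per 1000 bases of exon) are given in the order sham, scrambled, knockdown. Dact1, at 64.7, 41.3 and 57.6 RPKM, and Dact2, at 64.4, 8.10 and 34.2 RPKM, led in sham, with Sfrp2 next at 58.5, 42.0 and 90.9 RPKM. In scrambled libraries the mean of the ligand Wnt11 led, at 25.4, 47.7 and 20.3 RPKM, ahead of Sfrp2, Dact1 and Sfrp1 (22.8, 40.1 and 38.7 RPKM). These are orders of group means and did not hold in every library. Per length, Wnt11 lay below Sfrp1, Sfrp2 and Dact1 in scrambled library 2, and Sfrp2 lay above Dact2 in sham library 2. Sfrp2, Dact1 and Sfrp4 (45.5, 21.5 and 49.4 RPKM) led in knockdown libraries. The spread of each mean is in the plot of levels per length. Wnt11 was the highest ligand in each group, and Wnt10b stood at 19.9, 3.06 and 11.7, Wnt9a at 9.57, 12.9 and 7.82, Wnt5a at 10.6, 5.32 and 9.72, Wnt2 at 7.08, 1.90 and 8.54 and Wnt5b at 2.90, 4.67 and 2.35 RPKM. The other 7 reported ligands lay at or below 0.532 RPKM in each group. Fzd4 was the highest receptor in each group, at 14.0, 25.8 and 17.7 RPKM, with Fzd1 at 12.6, 10.6 and 13.7, Fzd7 at 11.4, 14.8 and 11.6 and Fzd2 at 11.8, 5.34 and 10.5 RPKM. Lrp6 stood at 13.1, 13.7 and 16.3 and Lrp5 at 10.7, 11.3 and 11.5 RPKM. Dkk2, at 25.5, 31.9 and 30.1 RPKM, was above Dkk3, at 3.04, 6.62 and 5.21 RPKM, in each group, and the R-spondins did not exceed 2.40 RPKM. The lowest members just inside the rule were Wnt7b, with 21 and 11 reads in its 2 highest libraries, and Wnt10a, with 13 and 12. Just outside it were Wnt3, with 11 and 4 reads, and Rspo4, with 4 and 4. Dkk1 had 21 reads in scrambled library 1, 1 read in scrambled library 3 and none elsewhere.

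**Figure D1:**
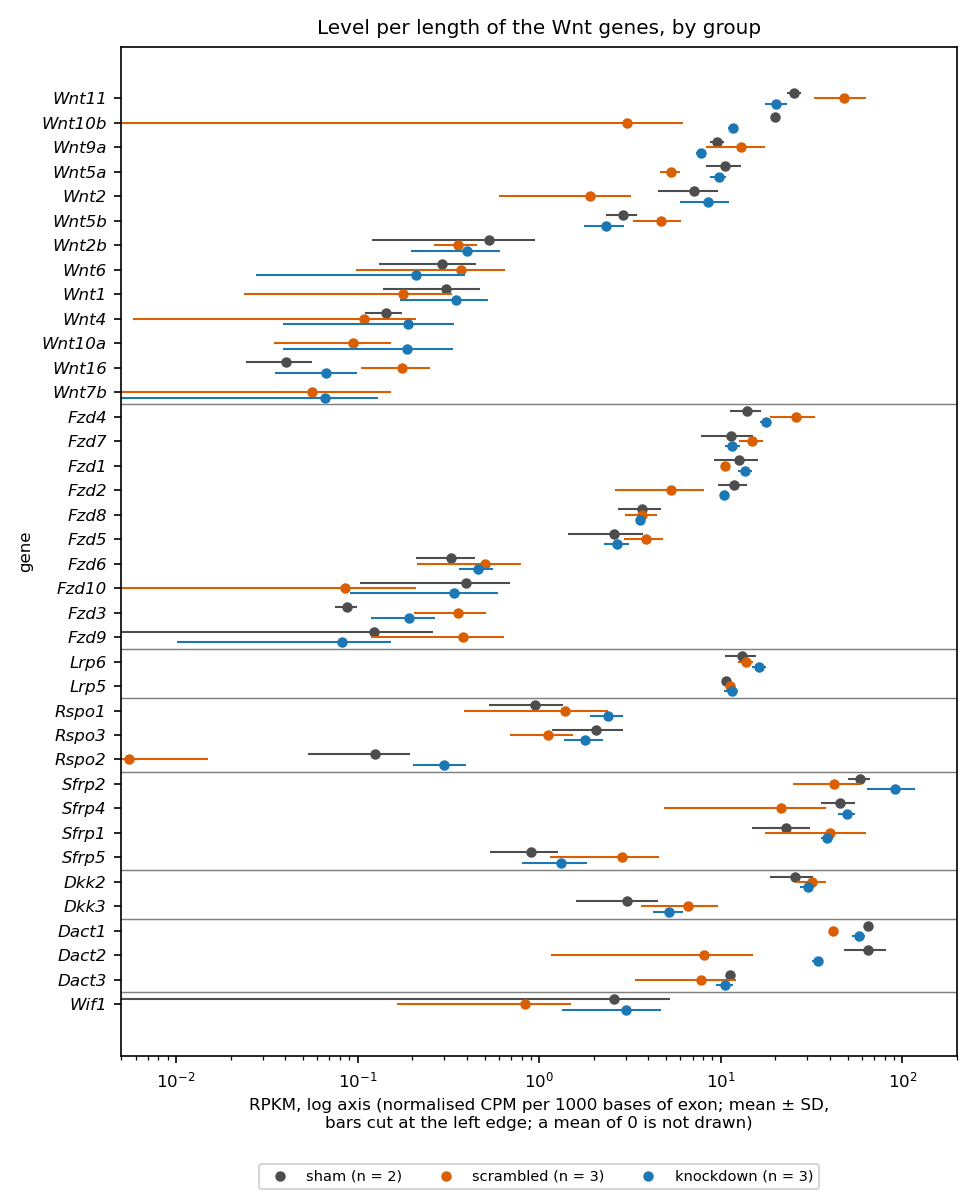
Level per length (RPKM, log axis) of the 38 reported genes, grouped by role, as the mean ± SD of sham (n = 2), scrambled (n = 3) and knockdown (n = 3) libraries. The highest mean is that of Dact1 in sham, of Wnt11 in scrambled and of Sfrp2 in knockdown libraries, and the scrambled means of Dact2 (8.10 RPKM) and Wnt10b (3.06 RPKM) lie below the sham means (64.4 and 19.9 RPKM).

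Between scrambled and sham libraries, Wnt5a and Dact2 fell and no member rose by edgeR's quasi-likelihood test (adjusted p under 0.05 over all genes tested). The 2 members called stand beside 0.476% of all genes called lower, 1.1% called higher and 1.58% called in all. An unadjusted p under 0.05 was reached by 6 members that were higher and 7 that were lower (16.7% and 12.5% of all genes, 29.2% together). The groups did not overlap for 6 members that were higher and 8 that were lower, against 20.2% and 20.8% of all genes (41% together), close to the background. limma-voom called 0 members higher and 2 lower, Wnt10b and Dact2, against 0.733% and 0.374% of all genes. DESeq2 called 3 higher (Wnt11, Fzd4 and Fzd3) and 7 lower (Wnt5a, Wnt10b, Wnt2, Fzd2, Rspo2, Dact1 and Dact2), against 9.9% and 5.64%.

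Between knockdown and scrambled libraries edgeR called no member, where 0.00733% of all genes were called higher, 0.044% lower and 0.0513% in all. An unadjusted p under 0.05 was reached by 15 members (32.4% of all genes), 10 of them higher and 5 lower, against 13.9% and 18.5%. The groups did not overlap for 11 members that were higher and 6 that were lower, against 17.5% and 16.7% (34.2% together). DESeq2 called 9 members higher and 2, Wnt5b and Wnt11, lower (5.94% and 11.5% of all genes), and limma-voom called 0 either way (0% higher and 0.0366% lower).

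Between knockdown and sham libraries edgeR called no member (0.00733% of all genes higher, 0% lower, 0.00733% in all). An unadjusted p under 0.05 was reached by 1 member, Wnt10a, which was higher (2.37% of all genes, 1.67% higher and 0.696% lower). The groups did not overlap for 9 members that were higher and 5 that were lower, against 13.8% and 13.5% (27.2% together). DESeq2 and limma-voom called 0 members, against 0.176% and 0.00733% of all genes higher and 0.00735% and 0% lower. The comparisons share libraries in pairs, so each comparison's values are set side by side. The median log2 change of the members was 0.07, 0.18 and 0.12 in these 3 comparisons, beside 0.00, 0.01 and -0.00 over all genes.

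**Figure D2:**
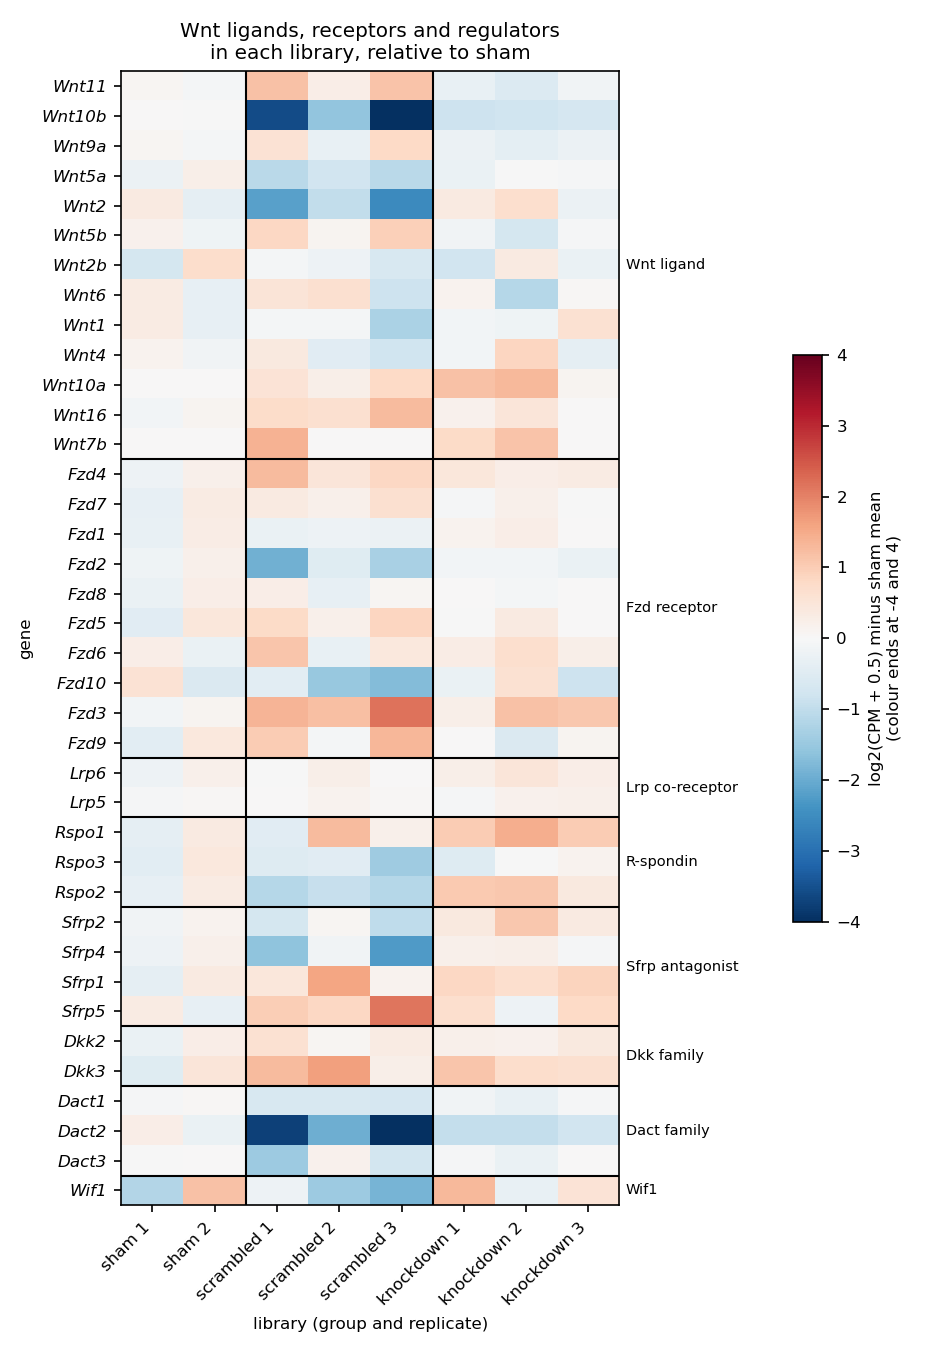
Each reported gene (rows, by role) in each library (columns), as log2(CPM + 0.5) minus the sham mean, with blue lower and red higher. Dact2 and Wnt10b are deep blue in scrambled libraries 1 and 3, with scrambled library 2 between these and the knockdown libraries, while Lrp5 and Lrp6 stay pale throughout.

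Among the ligands, Wnt5a, which often signals without beta-catenin, stood at 70.2 and 95.3 CPM in sham, at 38.9, 47.8 and 38.3 CPM in scrambled and at 67.4, 81.7 and 79.0 CPM in knockdown libraries. All 3 scrambled libraries were below every other library. Wnt5a fell by 0.99 ± 0.19 (SE) on the log2 scale from sham to scrambled libraries (edgeR, adjusted p = 0.046, from 0.000304 to 0.293 over its alternatives). Its value of 0.87 ± 0.18 in knockdown against scrambled libraries did not pass (edgeR, adjusted p = 0.0676, from 0.000358 to 0.236). The fall was called without scrambled library 2, at -1.10. It was not called without sham library 1 (-1.20), sham library 2 (-0.76), scrambled library 1 (-0.94), scrambled library 3 (-0.93) or any 1 knockdown library (-0.99 each). Wnt5a lies on chromosome 14 from 28504750 to 28527448 (mm10, + strand).

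Wnt10b, a beta-catenin ligand known for holding back fat cell formation, showed a wider span. It stood at 69.0 and 66.6 CPM in sham, at 5.17, 22.6 and 3.46 CPM in scrambled and at 37.9, 38.9 and 42.8 CPM in knockdown libraries. The 3 groups did not overlap, with sham highest, knockdown between and scrambled lowest. The log2 change of Wnt10b was -2.68 ± 0.60 in scrambled against sham (edgeR, adjusted p = 0.0578, from 2.42e-07 to 0.39) and 1.91 ± 0.55 in knockdown against scrambled libraries (edgeR, adjusted p = 0.0789, from 5.03e-07 to 0.236), and neither passed. The first was called with DESeq2 and limma-voom and the second with DESeq2, and without scrambled library 2 both were called, at -3.92 and 3.15. In knockdown against sham libraries it was -0.77 ± 0.57 (edgeR, adjusted p = 1, from 0.0126 to 1), with the lowest value, a call, where these 5 libraries were fitted alone. Wnt10b lies on chromosome 15 from 98770712 to 98778150 (- strand), next to Wnt1 at 98789857 to 98793837 (+ strand). Wnt1 stayed between 0 and 1.31 CPM in every library.

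Wnt2, another beta-catenin ligand, stood at 20.1 and 11.9 CPM in sham, at 3.02, 7.61 and 2.204 CPM in scrambled and at 19.9, 24.7 and 13.2 CPM in knockdown libraries. Every scrambled library lay below every sham and knockdown library. On the log2 scale Wnt2 differed by -1.86 ± 0.49 in scrambled against sham (edgeR, adjusted p = 0.078, from 0.000362 to 0.424) and 2.13 ± 0.45 in knockdown against scrambled libraries (edgeR, adjusted p = 0.0685, from 9.18e-05 to 0.236). Both were called with DESeq2 and without scrambled library 2, at -2.55 and 2.82.

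Wnt11, which acts largely through polarity routes, lay the other way. It stood at 112 and 98.1 CPM in sham, at 236, 125 and 231 CPM in scrambled and at 85.5, 71.7 and 94.5 CPM in knockdown libraries, so that the scrambled libraries were the 3 highest. For Wnt11 the log2 change was 0.91 ± 0.28 in scrambled against sham (edgeR, adjusted p = 0.0983, from 9.83e-05 to 0.542) and -1.23 ± 0.25 in knockdown against scrambled libraries (edgeR, adjusted p = 0.0656, from 6.39e-06 to 0.236). Both were called with DESeq2 and without scrambled library 2, at 1.16 and -1.48. Wnt5b, a close relative of Wnt5a, stood at 8.73 and 6.64 CPM in sham, at 13.9, 8.20 and 15.1 CPM in scrambled and at 6.93, 4.46 and 7.30 CPM in knockdown libraries. Wnt9a, a ligand of joint development, stood at 33.8 and 29.9 CPM in sham, at 48.1, 25.5 and 55.4 CPM in scrambled and at 27.1, 24.1 and 26.8 CPM in knockdown libraries. For both, scrambled libraries 1 and 3 were the highest of all, while scrambled library 2 lay among the sham libraries for Wnt5b and below them for Wnt9a. Neither passed by edgeR on all libraries, with log2 changes of 0.69 ± 0.36 and -0.98 ± 0.31 for Wnt5b (adjusted p = 0.221 and 0.0908) and 0.43 ± 0.30 and -0.72 ± 0.26 for Wnt9a (adjusted p = 0.338 and 0.112). Without scrambled library 2 both were called in each of the comparisons with the tumour-bearing scrambled group (scrambled against sham and knockdown against scrambled, the tumour comparisons), Wnt5b at log2 0.92 and -1.20 and Wnt9a at 0.70 and -0.99, and DESeq2 called Wnt5b in the second.

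The makeup of the ligand pool differed with these values. Shares are per length within each library, over all 19 matching Wnt genes, of which 13 are reported. Wnt11 made up 33.8% and 32.2% of the summed RPKM in sham libraries, 65.9%, 51.6% and 65.1% in scrambled and 33.5%, 28.4% and 36.0% in knockdown libraries. Wnt10b made up 25.4% and 26.6% in sham, 1.76%, 11.3% and 1.19% in scrambled and 18.1%, 18.8% and 19.8% in knockdown libraries. For both genes all 3 scrambled libraries lay outside the range of the other 5, with scrambled library 2 the closest to it. The ratio of Wnt11 to Wnt10b, both in RPKM, was 1.33 and 1.21 in sham, 37.4, 4.55 and 54.8 in scrambled and 1.85, 1.51 and 1.82 in knockdown libraries. Shares and ratios within a library do not depend on the scaling between libraries. The summed ligand level stood at 79.9 and 73.6 RPKM in sham, 86.4, 58.6 and 85.8 RPKM in scrambled and 61.6, 60.9 and 63.5 RPKM in knockdown libraries, where scrambled library 2 was the lowest of all and scrambled libraries 1 and 3 the highest. The pair was chosen after its values were seen, and neither shares nor ratios were tested.

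**Figure D3:**
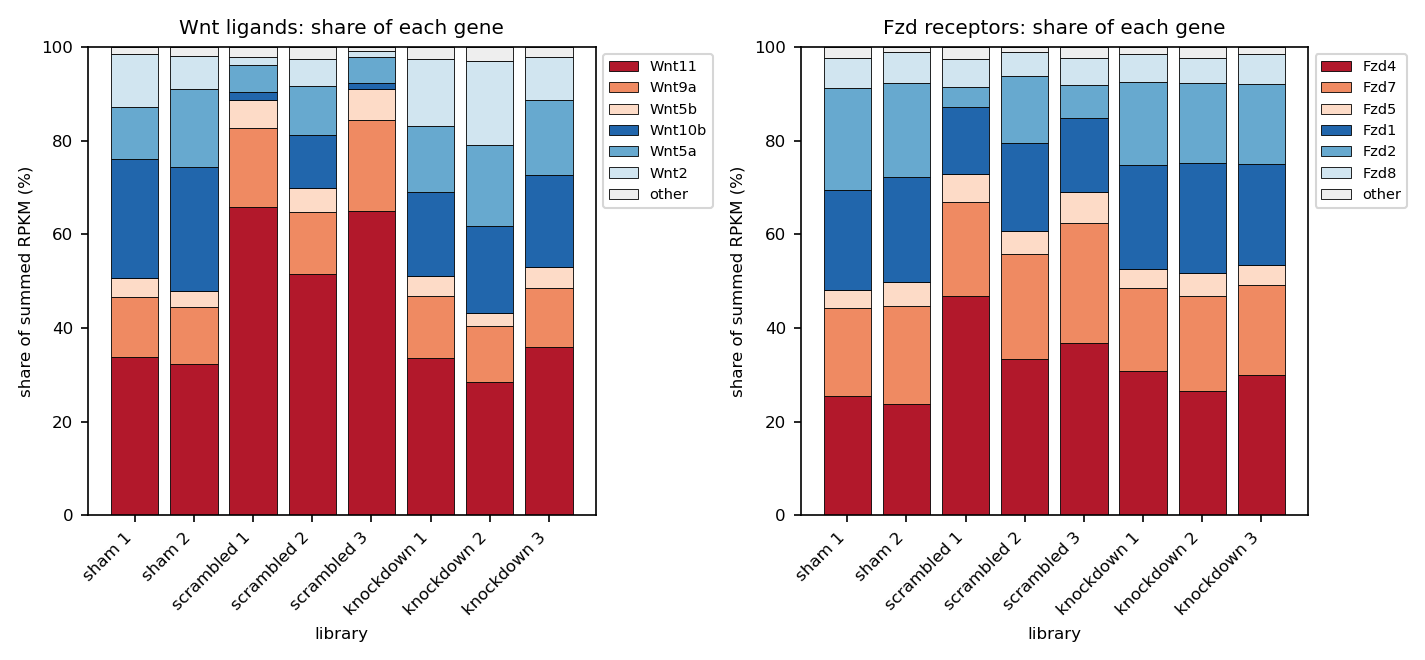
Share of each gene in the summed RPKM of the 19 matching Wnt ligands (left) and the Fzd receptors (right), in percent, for each of the 8 libraries. Wnt11 takes 65.9%, 51.6% and 65.1% in the scrambled libraries and at most 36.0% elsewhere, and Fzd4 takes 46.9%, 33.4% and 36.8% in the scrambled libraries and at most 30.9% elsewhere.

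The region around the start of Wnt11, the ligand that was highest in the scrambled libraries, is shown with those of Wnt10b, which lay in the opposite direction, and Dact2, the member with the larger called fall. Each runs from 250 bases before to 50 bases after the RefSeq start on GRCm38.p6 (the mm10 build), 5′ to 3′ on the gene's strand. Capitals mark matches on either strand to 4 letter strings: CTTTGAT and CTTTGAA, cores of TCF and LEF sites, TTCNNNGAA, a STAT core, and TATAAA.
Wnt11, chr7:98834862-98835161, + strand: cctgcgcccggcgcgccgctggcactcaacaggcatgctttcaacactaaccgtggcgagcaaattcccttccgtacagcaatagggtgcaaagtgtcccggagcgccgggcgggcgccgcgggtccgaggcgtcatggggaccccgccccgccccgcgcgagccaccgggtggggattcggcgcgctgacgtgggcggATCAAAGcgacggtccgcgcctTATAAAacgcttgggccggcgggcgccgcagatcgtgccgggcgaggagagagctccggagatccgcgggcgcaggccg
Wnt10b, chr15:98778101-98778400, - strand: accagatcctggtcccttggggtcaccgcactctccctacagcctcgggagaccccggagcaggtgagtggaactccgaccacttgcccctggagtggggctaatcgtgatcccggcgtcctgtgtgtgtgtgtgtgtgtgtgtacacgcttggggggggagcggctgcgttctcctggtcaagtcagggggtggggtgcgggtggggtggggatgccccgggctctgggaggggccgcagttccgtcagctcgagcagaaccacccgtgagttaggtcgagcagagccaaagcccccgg
Dact2, chr17:14203782-14204081, - strand: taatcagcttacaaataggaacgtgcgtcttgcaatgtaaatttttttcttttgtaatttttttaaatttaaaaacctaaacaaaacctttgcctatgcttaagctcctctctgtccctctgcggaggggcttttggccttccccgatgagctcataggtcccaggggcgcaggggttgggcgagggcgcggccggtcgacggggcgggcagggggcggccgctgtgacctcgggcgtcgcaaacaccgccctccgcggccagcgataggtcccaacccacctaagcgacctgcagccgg
In the Wnt11 region ATCAAAG, the reverse complement of CTTTGAT, begins 51 bases before the start, and TATAAA begins 29 bases before it, so that they do not overlap. The table holds another start of Wnt11, with no match. The Wnt10b and Dact2 regions held none of the 4 strings. The Dact2 region lies inside the span annotated for that gene (14195052 to 14204304), so the bases before that span were not searched. Of 32851 regions of this length, 3.73% held CTTTGAT, 5.14% CTTTGAA, 8.3% TTCNNNGAA and 13.6% TATAAA. Of the 34 regions of 31 members found in RefSeq's table, 2 held CTTTGAT (Wnt11 and a start of Wnt5b), 1 CTTTGAA (Dkk1), 1 TTCNNNGAA (another start of Wnt5b) and 6 TATAAA. A match is a description of letters, and no binding was measured.

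The remaining ligands were low. Wnt2b, Wnt6 and Wnt4 did not exceed 3.46, 1.23 and 1.51 CPM in any library. Wnt16 stood at 0.127 and 0.223 CPM in sham, at 0.627, 0.549 and 1.13 CPM in scrambled and at 0.257, 0.446 and 0.175 CPM in knockdown libraries, with no overlap between scrambled libraries and the rest (edgeR, adjusted p = 0.138 and 0.148). Wnt10a, a ligand known from skin and teeth, had 0 and 0 reads in sham, 6, 2 and 6 in scrambled and 12, 13 and 1 in knockdown libraries. Against 3 reads set for the whole sham group, it was 2.42-fold higher in scrambled and 4.85-fold higher in knockdown libraries (edgeR, adjusted p = 0.259 and 1). These folds allow for counting error in the sham group alone and take the tumour reads as exact, so they are not lower limits. Wnt7b had 0 and 0 reads in sham, 21, 0 and 0 in scrambled and 7, 11 and 0 in knockdown libraries, so that 3 libraries held all of them. Folds from reads cover no more than counting error, as no molecular identifiers are given.

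Of the receptors, Fzd4, which also binds norrin, stood at 81.0 and 107 CPM in sham, at 226, 129 and 166 CPM in scrambled and at 127, 113 and 116 CPM in knockdown libraries. All scrambled libraries were above all others, and the knockdown libraries lay above sham. The log2 change of Fzd4 was 0.88 ± 0.25 in scrambled against sham (edgeR, adjusted p = 0.0844, from 0.000543 to 0.424) and -0.55 ± 0.22 in knockdown against scrambled libraries (edgeR, adjusted p = 0.128, from 0.00258 to 0.793). The first was called with DESeq2, and both without scrambled library 2, at 1.07 and -0.73. Endothelial cells are known to carry Fzd4. The 10 endothelial markers summed to between 544 and 569 CPM in sham, 426 and 547 in scrambled and 538 and 633 in knockdown libraries, and no marker was called in any of the 3 comparisons or at 0 in every library. Their median log2 change was 0.43 in scrambled against sham and -0.28 in knockdown against scrambled libraries, in the directions of Fzd4, although the sum was not higher in scrambled libraries. Of the 10, an unadjusted p under 0.05 (edgeR) was reached in scrambled against sham libraries by 3 upward and 1 downward, beside 16.7% and 12.5% of all genes. Pecam1, a defining marker and the only one given by library, stood at 29.9 and 20.2 CPM in sham, at 73.0, 37.7 and 56.2 CPM in scrambled and at 35.0, 46.4 and 49.0 CPM in knockdown libraries, and its part in the Fzd4 values was not tested.

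Fzd2, a receptor for Wnt5a, stood at 37.6 and 48.9 CPM in sham, at 10.9, 30.5 and 17.3 CPM in scrambled and at 39.8, 39.5 and 35.9 CPM in knockdown libraries, with every scrambled library below the rest. On the log2 scale Fzd2 differed by -1.14 ± 0.36 in scrambled against sham (edgeR, adjusted p = 0.101, from 0.000113 to 0.406) and 0.97 ± 0.33 in knockdown against scrambled libraries (edgeR, adjusted p = 0.0966, from 0.000134 to 0.501). Both were called with DESeq2 and without scrambled library 2, at -1.65 and 1.47. The ratio of Fzd4 to Fzd2, both in RPKM, was 1.18 and 1.19 in sham, 11.3, 2.31 and 5.24 in scrambled and 1.74, 1.56 and 1.77 in knockdown libraries, a pair chosen after its values were seen. Fzd3, a planar polarity receptor at a low level, stood at 1.01 and 1.23 CPM in sham, at 3.68, 3.21 and 6.80 CPM in scrambled and at 1.39, 3.13 and 2.89 CPM in knockdown libraries, higher in every tumour library than in sham. Its log2 change was 1.98 ± 0.58 in scrambled and 1.13 ± 0.61 in knockdown against sham libraries (edgeR, adjusted p = 0.0897, from 0.00676 to 0.424, and 1). The scrambled value was called with DESeq2 and, at 2.15, without scrambled library 2. In knockdown against scrambled libraries the log2 change of Fzd3 was -0.85 ± 0.43 (edgeR, adjusted p = 0.196), with every knockdown library below every scrambled library. That change was called, at -1.02, without scrambled library 2.

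Fzd5 stood at 12.3 and 23.5 CPM in sham, at 29.2, 19.5 and 31.5 CPM in scrambled and at 16.9, 21.99 and 17.1 CPM in knockdown libraries, and its groups overlapped (edgeR, log2 0.57 ± 0.32 and -0.52 ± 0.28, adjusted p = 0.249 and 0.22). Without scrambled library 2 it was called, at log2 0.75 in scrambled against sham and -0.71 in knockdown against scrambled libraries. Fzd9 stood at 0.0633 and 0.502 CPM in sham, at 1.02, 0.211 and 1.39 CPM in scrambled and at 0.257, 0 and 0.306 CPM in knockdown libraries (edgeR, log2 1.46 ± 1.06 and -2.02 ± 0.96, adjusted p = 0.348 and 0.166), and was called without that library in knockdown against scrambled libraries, at -2.52. Its value in scrambled against sham libraries depended on which sham library was kept, at 0.71 without sham library 1 and 3.57 without sham library 2. Fzd7, Fzd1 and Fzd8 had log2 changes between -0.35 and 0.38 over the 3 comparisons (edgeR, adjusted p from 0.174 to 1). Fzd7, the second highest receptor per length in scrambled libraries and below Fzd1 in the other 2 groups, stood at 40.1 and 63.1 CPM in sham, at 65.2, 58.2 and 77.96 CPM in scrambled and at 49.2, 58.3 and 50.2 CPM in knockdown libraries, with overlap in scrambled against sham libraries. Fzd6 and Fzd10 did not exceed 3.92 and 2.01 CPM.

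The co-receptors differed little between groups. Lrp5 stood at 101 and 107 CPM in sham, at 105, 116 and 109 CPM in scrambled and at 100.1, 116 and 119 CPM in knockdown libraries (edgeR, log2 0.07 ± 0.16 and 0.03 ± 0.14 in the tumour comparisons, adjusted p = 0.758 and 0.902). Lrp6 stood at 155 and 203 CPM in sham, at 175, 209 and 179 CPM in scrambled and at 209.8, 246 and 213 CPM in knockdown libraries, a little higher in each knockdown library than in any other (edgeR, log2 0.32 ± 0.19 against sham and 0.25 ± 0.17 against scrambled libraries, adjusted p = 1 and 0.304).

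**Figure D4:**
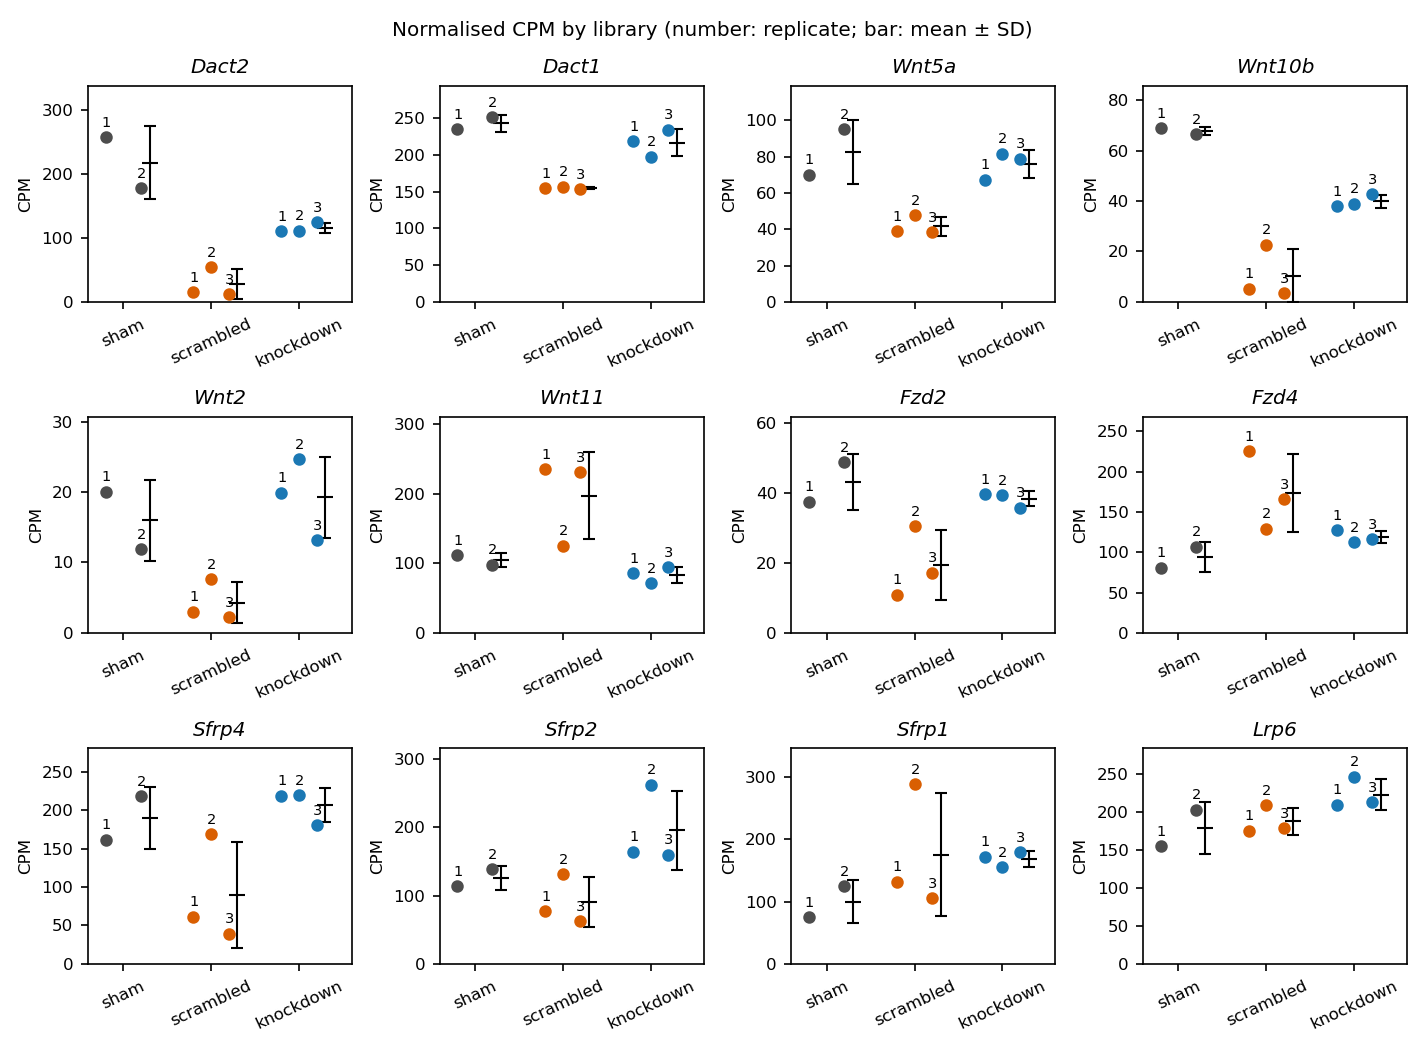
Normalised CPM of 12 members by library, with the replicate number at each point and the mean ± SD beside it (sham n = 2, scrambled n = 3, knockdown n = 3, axes from 0). Scrambled library 2 lies between scrambled libraries 1 and 3 and the knockdown libraries for Dact2, Wnt10b and Fzd2, whereas the 3 scrambled values of Dact1 (155, 157 and 154 CPM) lie together.

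The R-spondins, which act through Lgr receptors, were scarce. Rspo2 had 6 and 16 reads in sham, 0, 2 and 0 in scrambled and 35, 33 and 22 in knockdown libraries, with no overlap. From the summed reads it was 48.6 times as high in knockdown as in scrambled libraries, with a 95% exact interval for counting error only from 13.1 to 407. It was 21.2 times as high in sham as in scrambled libraries (5.22 to 186). Neither difference passed by edgeR (adjusted p = 0.061, from 0.000839 to 0.236, and 0.105, from 0.0184 to 0.435). Both were called with DESeq2 and without scrambled library 2, which held the only reads of that group. Rspo1 stood at 1.27 and 2.40 CPM in sham, at 1.14, 4.90 and 2.08 CPM in scrambled and at 4.11, 5.75 and 4.11 CPM in knockdown libraries, where only scrambled library 2 among the sham and scrambled libraries reached the knockdown range. Its log2 change in knockdown against scrambled libraries was 0.76 ± 0.51 (edgeR, adjusted p = 0.302, from 0.00728 to 0.943), called at 1.60 without scrambled library 2. In scrambled against sham libraries the change of Rspo1 was 0.55 ± 0.66 (edgeR, adjusted p = 0.569), and it turned to -0.29 without scrambled library 2. Rspo3 stood at 4.43 and 8.20 CPM in sham, at 4.07, 4.31 and 1.95 CPM in scrambled and at 4.05, 5.97 and 6.65 CPM in knockdown libraries (edgeR, log2 -0.84 ± 0.43 and 0.66 ± 0.39, adjusted p = 0.217 and 0.259).

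Of the secreted antagonists, Sfrp4 stood at 162 and 218 CPM in sham, at 61.3, 169 and 39.0 CPM in scrambled and at 219, 219.7 and 180.5 CPM in knockdown libraries. Scrambled libraries 1 and 3 were low, and scrambled library 2 lay within the sham range. For Sfrp4 the log2 change was -1.08 ± 0.49 in scrambled against sham (edgeR, adjusted p = 0.181, from 4.66e-05 to 0.761) and 1.20 ± 0.45 in knockdown against scrambled libraries (edgeR, adjusted p = 0.118, from 1.86e-05 to 0.566). The second was called with DESeq2, and both without scrambled library 2, at -1.90 and 2.02. Sfrp2, the Sfrp gene with the highest mean per length in each group, stood at 114 and 138 CPM in sham, at 77.3, 132 and 62.3 CPM in scrambled and at 165, 263 and 159.8 CPM in knockdown libraries, with all knockdown libraries above all others. The log2 change of Sfrp2 was -0.48 ± 0.33 in scrambled against sham (edgeR, adjusted p = 0.341, from 0.0133 to 0.952) and 1.11 ± 0.30 in knockdown against scrambled libraries (edgeR, adjusted p = 0.075, from 0.000317 to 0.488). The second was called with DESeq2, and both without scrambled library 2, at -0.84 and 1.47.

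Sfrp1 stood at 75.2 and 125 CPM in sham, at 132, 288 and 106 CPM in scrambled and at 172, 155 and 179.7 CPM in knockdown libraries, and scrambled library 2 was the highest of all 8. In scrambled against sham libraries it had a log2 change of 0.81 ± 0.41 (edgeR, adjusted p = 0.209, from 0.00783 to 0.618). Its log2 change in knockdown against scrambled libraries was -0.05 ± 0.35 (edgeR, adjusted p = 0.923, from 0.0469 to 0.998) and turned to 0.50, called, without scrambled library 2. Sfrp5, a low member, stood at 2.21 and 1.23 CPM in sham, at 3.76, 3.34 and 9.13 CPM in scrambled and at 2.93, 1.40 and 3.24 CPM in knockdown libraries, with every scrambled library above the rest. On the log2 scale Sfrp5 differed by 1.62 ± 0.63 in scrambled against sham (edgeR, adjusted p = 0.138, from 0.0178 to 0.465) and -1.03 ± 0.50 in knockdown against scrambled libraries (edgeR, adjusted p = 0.182, from 0.0351 to 0.784). Both were called without scrambled library 2, at 1.84 and -1.24. Wif1, which also binds Wnt ligands, varied within groups, at 1.71 and 10.8 CPM in sham, at 3.88, 1.31 and 0.882 CPM in scrambled and at 11.7, 3.57 and 6.74 CPM in knockdown libraries, and no difference passed (edgeR, adjusted p = 0.223, 0.138 and 1 in the 3 comparisons). Its log2 change in scrambled against sham libraries, -1.58 ± 0.82, turned to 0.31 without sham library 2.

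Markers of tendon cells lay, at the median, in the same direction as Sfrp4 and Sfrp2. The 10 tenocyte markers had a median log2 change of -1.29 in scrambled against sham and 1.19 in knockdown against scrambled libraries, beside the medians over all genes given above. None of the 10 was called in any comparison or at 0 in every library. They summed to between 741 and 1213 CPM in sham, 685 and 945 in scrambled and 731 and 1505 in knockdown libraries, of which Thbs4 alone made 449 to 760.3 CPM. Tnmd, a defining marker, stood at 4.17 and 15.2 CPM in sham, at 1.96, 8.49 and 0.567 CPM in scrambled and at 20.02, 6.64 and 15.4 CPM in knockdown libraries, and Scx did not exceed 1.62 CPM. Their part in the results was not tested.

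Among Dkk genes, Dkk2 stood at 76.7 and 112 CPM in sham, at 141, 97.0 and 116 CPM in scrambled and at 106, 105 and 123 CPM in knockdown libraries, and its scrambled libraries overlapped both other groups (edgeR, log2 0.32 ± 0.23 and -0.08 ± 0.20, adjusted p = 0.338 and 0.779). Dkk3, a divergent member of the family, stood at 6.77 and 13.7 CPM in sham, at 24.1, 31.3 and 11.4 CPM in scrambled and at 21.2, 15.9 and 15.4 CPM in knockdown libraries. Scrambled library 2 was its highest library and scrambled library 3 lay within the sham range (edgeR, log2 1.12 ± 0.44 in scrambled against sham libraries, adjusted p = 0.143, up to 0.522 over its alternatives). The log2 value was 1.72 without sham library 2 and 0.83, not called, without scrambled library 2.

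The Dact genes, which encode cytoplasmic partners of Dishevelled, held the larger of the 2 called differences. Dact2 stood at 258 and 177 CPM in sham, at 15.5, 54.4 and 12.3 CPM in scrambled and at 111, 111 and 125 CPM in knockdown libraries. The 3 groups did not overlap, in the order sham, knockdown, scrambled. In scrambled against sham libraries it fell, 7.90-fold lower (log2 -2.98 ± 0.54, edgeR, adjusted p = 0.0378, from 2.9e-07 to 0.322 over its alternatives). In knockdown against scrambled libraries the log2 change of 2.07 ± 0.49 did not pass (edgeR, adjusted p = 0.0728, from 6.68e-07 to 0.236), and it was called with DESeq2 and, at 3.04, without scrambled library 2. In knockdown against sham libraries it was -0.91 ± 0.52 (edgeR, adjusted p = 1, from 0.022 to 1), called without scrambled library 2 at -0.91 (0.0664% of all genes called lower, 0.17% higher) and where those groups were fitted alone. The fall from sham to scrambled libraries stood at -3.95 without scrambled library 2 and was still called. It was not called without sham library 1 (-2.69), sham library 2 (-3.23), scrambled library 1 (-2.69), scrambled library 3 (-2.64) or any 1 knockdown library (-2.98 each). Dact2 lies on chromosome 17 from 14195052 to 14204304 (mm10, - strand).

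Dact1 differed less but evenly. It stood at 235 and 252 CPM in sham, at 155, 157 and 154 CPM in scrambled and at 219, 197 and 234 CPM in knockdown libraries, so that scrambled library 2 was here like scrambled libraries 1 and 3. For Dact1 the log2 change was -0.65 ± 0.15 in scrambled against sham (edgeR, adjusted p = 0.0643, from 0.00107 to 0.399) and 0.48 ± 0.14 in knockdown against scrambled libraries (edgeR, adjusted p = 0.0789, from 0.00706 to 0.236). Both were called with DESeq2 and without scrambled library 2, at -0.65 and 0.48. Another gene is annotated on the opposite strand over 34.9% of its exon bases, and the strand used in counting was not stated. Such overlaps are not particular to Dact1. Among others they cover 17.8% of exon bases in Fzd5, 16.1% in Sfrp2, 13.1% in Rspo3, 8.8% in Wnt11, 4.58% in Wnt5a and 2.16% in Dact2. Dact3 stood at 33.0 and 34.1 CPM in sham, at 11.9, 37.7 and 20.03 CPM in scrambled and at 32.4, 27.8 and 34.2 CPM in knockdown libraries, with scrambled library 2 the highest of all 8 (edgeR, log2 -0.53 ± 0.39 and 0.44 ± 0.35, adjusted p = 0.363 and 0.388). It was called without that library, at -1.10 and 1.01. Together the 3 genes summed to 149.8 and 131 RPKM in sham, 49.8, 70.4 and 51.2 RPKM in scrambled and 102, 94.7 and 111 RPKM in knockdown libraries.

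**Figure D5:**
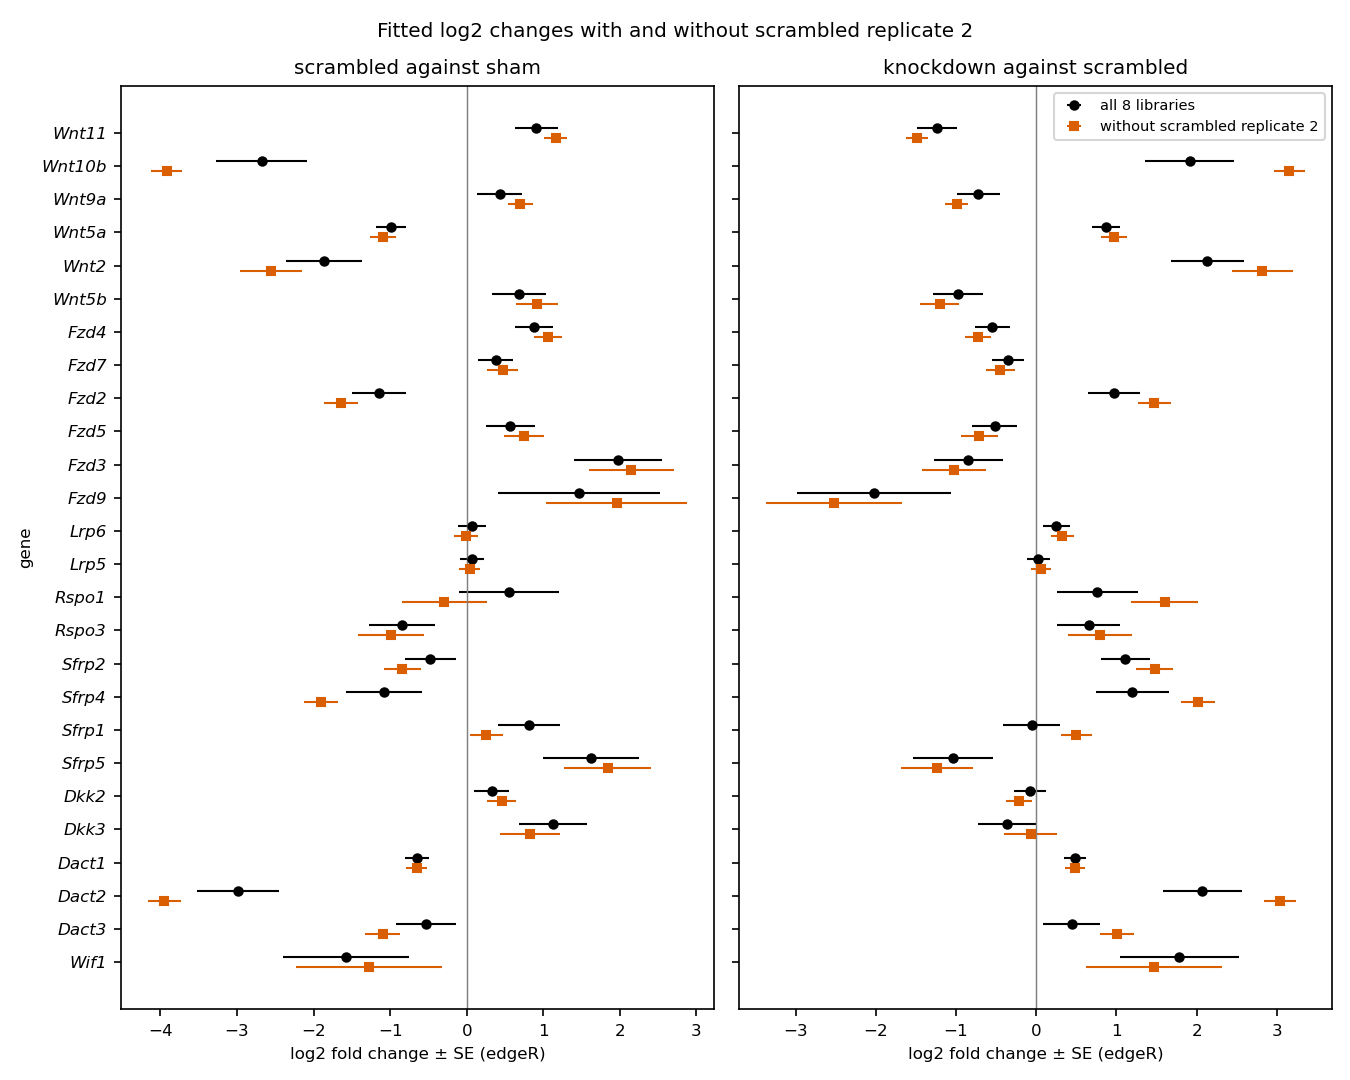
Fitted log2 fold changes ± SE (edgeR) of the members given with full values, for scrambled against sham (left) and knockdown against scrambled libraries (right). Fits are from all 8 libraries (black) and without scrambled library 2 (orange). Rspo2 (-4.15 and 5.36 from all libraries) and Wnt10a (5.15 and 0.99) are not drawn. For Dact2 the change moves from -2.98 to -3.95 on the left and from 2.07 to 3.04 on the right. The change of Sfrp1 turns in sign on the right, and those of Rspo1 (0.55 to -0.29) and Lrp6 (0.07 to -0.01) on the left.

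Without scrambled library 2, 7 members of 37 tested were called higher and 10 lower in scrambled than in sham libraries, against 25.4% and 25.6% of all genes. In knockdown against scrambled libraries 12 were called higher and 8 lower, against 27.3% and 26.6%. Leaving it out thus called a share of the Wnt genes near that of all genes. In the first comparison the 7 were Wnt11, Wnt9a, Wnt5b, Fzd4, Fzd5, Fzd3 and Sfrp5, and the 10 were Wnt5a, Wnt10b, Wnt2, Fzd2, Rspo2, Sfrp2, Sfrp4, Dact1, Dact2 and Dact3.

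Beyond the members, 107 of 122 genes listed for the pathway were tested, and 1 rose and 1 fell from sham to scrambled libraries, with a median log2 change of -0.04. An unadjusted p under 0.05 was reached by 19 that were higher and 14 lower, beside 16.7% and 12.5% of all genes. Apc2, a relative of the beta-catenin scaffold Apc, fell. It stood at 6.14 and 10.8 CPM in sham, at 0.431, 1.44 and 1.13 CPM in scrambled and at 4.72, 5.47 and 7.65 CPM in knockdown libraries (edgeR, log2 -3.11 ± 0.50 in scrambled against sham libraries, adjusted p = 0.0268, from 3.15e-06 to 0.246). Myc, a target shared by many pathways, rose. It stood at 191 and 156 CPM in sham, at 654, 380.2 and 655 CPM in scrambled and at 300.2, 329.8 and 303 CPM in knockdown libraries (edgeR, log2 1.70 ± 0.27, adjusted p = 0.0265, from 1.77e-07 to 0.247). Both calls held without scrambled library 2 (-3.58 and 1.92) and were lost without sham library 1 (-3.46 and 1.85), sham library 2 (-2.65 and 1.55) or any other single library. By edgeR 0 listed genes were called between knockdown and scrambled libraries, where 16 higher and 20 lower had an unadjusted p under 0.05 (near the 13.9% and 18.5% of all genes), or between knockdown and sham libraries, where 2 and 0 had.

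Of 19 tested beta-catenin targets, 1 was called higher (Myc) and 0 lower in scrambled against sham libraries, and an unadjusted p under 0.05 was reached by 7 upward and 0 downward (16.7% and 12.5% of all genes). In knockdown against scrambled libraries 0 were called, and that level was reached by 1 upward and 6 downward (13.9% and 18.5%). The median log2 change of the targets was 0.71 in the first comparison and -0.00 in the second. Axin2, a direct target and feedback inhibitor, stood at 6.52 and 6.75 CPM in sham, at 5.80, 6.25 and 8.88 CPM in scrambled and at 6.21, 8.32 and 6.21 CPM in knockdown libraries, with overlap between groups (edgeR, log2 0.06 ± 0.31 and -0.00 ± 0.27, adjusted p = 0.911 and 0.997). Jun, another listed target, had log2 changes of 0.89 ± 0.21 and -0.51 ± 0.18 (edgeR, adjusted p = 0.0615, from 5.7e-06 to 0.416, and 0.105, from 0.00706 to 0.283). Ctnnb1, which encodes beta-catenin, stood between 329.7 and 425 CPM. Of 17 tested nuclear partners 0 were called. Tcf7l2 stood between 31.7 and 51.0 CPM, and Lef1 had reads in 2 of 8 libraries and did not exceed 0.112 CPM. Tle3, a co-repressor, had log2 changes of 0.95 ± 0.26 and -0.90 ± 0.23, and Sox4, a transcription factor, of 3.73 ± 0.94 and -3.65 ± 0.78, none of which passed (edgeR, adjusted p = 0.0813, 0.0728, 0.0715 and 0.0689). Jun, Tle3 and Sox4 were called in both comparisons with DESeq2 and without scrambled library 2. Without scrambled library 3 the values of Sox4 moved to 2.53 and -2.45.

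Of 33 planar polarity and calcium genes 0 were called, with median log2 changes of -0.37 and 0.34 in the tumour comparisons. Vangl1, a polarity protein, stood at 42.8 and 56.3 CPM in sham, at 22.1, 34.2 and 20.5 CPM in scrambled and at 52.3, 50.6 and 58.2 CPM in knockdown libraries. The log2 change of Vangl1 was -0.95 ± 0.24 in scrambled against sham (edgeR, adjusted p = 0.0731, from 0.000183 to 0.367) and 1.06 ± 0.22 in knockdown against scrambled libraries (edgeR, adjusted p = 0.0685, from 4.97e-05 to 0.236). Celsr3, an atypical cadherin of that route, stood at 0.0633 and 0.112 CPM in sham, at 4.62, 0.592 and 1.45 CPM in scrambled and at 0.103, 0 and 0.175 CPM in knockdown libraries, with 3 reads in all of the sham group. Both genes were called with DESeq2 and without scrambled library 2 in each tumour comparison.

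Of 9 tested genes of Wnt secretion and extracellular control 0 were called. Wls, the carrier of Wnt proteins, stood at 103 and 136 CPM in sham, at 69.5, 104 and 69.8 CPM in scrambled and at 127, 104 and 122 CPM in knockdown libraries (edgeR, adjusted p = 0.149 and 0.119), and it was called without scrambled library 2 at log2 -0.77 and 0.75. Frzb did not exceed 1.17 CPM. Bambi and Trabd2b had log2 changes of 0.85 ± 0.28 and -0.07 ± 0.32 in scrambled against sham and -0.63 ± 0.24 and 0.76 ± 0.27 in knockdown against scrambled libraries, none of which passed. Bambi was called with DESeq2 in the first comparison and without scrambled library 2 in both (0.93 and -0.71), and Trabd2b without that library in the second (0.97). Among 12 tested co-receptor and receptor turnover genes 0 were called. Lrp4, a relative of Lrp5 and Lrp6, stood at 21.2 and 34.8 CPM in sham, at 69.3, 52.2 and 67.9 CPM in scrambled and at 33.8, 25.5 and 32.4 CPM in knockdown libraries, with every scrambled library above the rest (edgeR, log2 1.17 ± 0.26 and -1.05 ± 0.22, adjusted p = 0.0576 and 0.0687). Ror2, a co-receptor for Wnt5a, stood at 24.5 and 27.1 CPM in sham, at 11.2, 20.2 and 12.1 CPM in scrambled and at 20.9, 24.1 and 21.3 CPM in knockdown libraries (edgeR, adjusted p = 0.106 and 0.132). Tspan12, which aids norrin signalling at Fzd4, stood at 8.41 and 4.46 CPM in sham, at 2.27, 5.54 and 3.09 CPM in scrambled and at 8.26, 9.10 and 9.58 CPM in knockdown libraries (edgeR, adjusted p = 0.232 and 0.0797). Of 24 cytoplasmic genes 0 were called higher and 1 lower, Apc2, in scrambled against sham libraries. Cxxc5, which binds Dishevelled, stood in the order sham, knockdown, scrambled, at 136 and 100.04 CPM in sham, at 19.1, 59.0 and 21.8 CPM in scrambled and at 69.7, 75.2 and 79.8 CPM in knockdown libraries (edgeR, log2 -1.82 ± 0.42 and 1.17 ± 0.39, adjusted p = 0.0611 and 0.0952), with log2 changes of -2.53 and 1.87 without scrambled library 2. Lrp4, Ror2, Tspan12 and Cxxc5 were called in both comparisons without that library. With DESeq2 Lrp4 and Cxxc5 were called in both, Ror2 in the first and Tspan12 in the second.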

How the data were processed

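The authors deposited raw read counts per gene symbol for 8 libraries of sorted progenitors. Per the labels' protocols, RNA samples with a RIN from 7 upward were made into stranded mRNA libraries and read as pairs of 59 bases. The submitters' processing notes name build mm10, bcl2fastq 2.20, STAR, Bowtie, and R 4.2.1 with DESeq2 1.36.0. For counter, annotation and counting strand, none is given in the sources used here.

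In R 4.3.3, edgeR 4.0.16 filtered genes by filterByExpr (minimum count 10, total 15), scaled libraries by TMM and fitted 3 group means over all 8 libraries by robust quasi-likelihood, so the spread of all groups enters each p-value. Two-sided p-values were adjusted over 13646 genes (Benjamini-Hochberg), with a threshold of 0.05. The SE is the absolute log2 change over the square root of F. RPKM used exon lengths of GENCODE M21. limma 3.58.1 and DESeq2 1.42.0 were alternatives. The fit was tested on simulated data, whose outcome is not given here, so no conclusion is drawn from that test.

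Full values were given for members called in any comparison or without 1 library, the 2 highest per length in a role, and the 5 with the smallest p in a comparison. Pathway genes were named if called, preset (Axin2, Ctnnb1, Lef1, Tcf7l2, Frzb, Wls) or among the 2 of their list with the smallest p in a tumour comparison. Members, gene lists and tests were chosen with earlier results of these data known.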

Additional observations from a re-analysis of the deposited data

How the results depend on the processing

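Counts below are called higher and called lower, in that order. In scrambled against sham libraries the members' 0 and 2 became 3 and 7 with DESeq2, 0 and 1 with edgeR's older quasi-likelihood, 0 and 0 with only the groups compared, 2 and 3 with scrambled library 2 as its group's only library (chosen after seeing the data) and, leaving out 1 library at a time, 0 to 7 and 0 to 10. Over all genes, 150 and 65 became 1321 and 753, 106 and 27, 4 and 0, 307 and 186 and 0 to 3441 and 0 to 3467. In knockdown against scrambled libraries the members' 0 and 0 became 9 and 2 with DESeq2, 2 and 0 with scrambled library 2 alone and 0 to 12 and 0 to 8 leaving out 1 library. Over all genes, 1 and 6 became 1 and 10 without a filter, 792 and 1528 with DESeq2, 0 and 5 with limma-voom, 0 and 1 with the older quasi-likelihood, 0 and 0 with only the groups compared, 27 and 73 with scrambled library 2 alone and 0 to 3705 and 0 to 3608 leaving out 1 library. In knockdown against sham libraries the members' 0 and 0 became 0 and 2 with only the groups compared and 0 to 0 and 0 to 1 leaving out 1 library, and the 1 and 0 of all genes became 2 and 0 without a filter, 24 and 1 with DESeq2, 73 and 28 with only the groups compared and 0 to 23 and 0 to 9 leaving out 1 library. The cause was not tested. Sfrp1 in knockdown against scrambled libraries reversed to 0.50 without scrambled library 2 and ranged from -0.32 to 0.50 leaving out 1 library. With the replicate number as a block, members called were 0 and 0 in scrambled against sham, 0 and 0 in knockdown against scrambled and 0 and 0 in knockdown against sham libraries, and all genes 14 and 2, 0 and 0 and 0 and 0. Same-numbered libraries had correlated deviations from -0.0911 to 0.159, with 1 pair above 0.1, so the number was not taken to pair them. Members near 3 reads (0.118 to 0.190 CPM) were limited by depth.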
